A study of Mus musculus with 15 samples.

Results

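Pancreatic explants kept for 2 days in culture were compared with freshly dissected pancreas of the stage from which they were taken. The data were the 3 libraries labelled 14.5 + 2 control and the 3 libraries labelled 14.5 wt, which are 6 of the 15 RNA sequencing libraries of the series, and the difference control minus wt was tested for 16245 of the 25292 genes in the deposited table of raw read counts. The wt libraries were made from wildtype embryonic pancreas of strain C57/Bl6J at 14.5 days post coitum (dpc). The control libraries were labelled with the same tissue and strain and the standard condition, and their genotype was not labelled. By the methods of the study, explants were dorsal pancreatic buds dissected at 14.5 dpc and placed on filters at an air-liquid interface (ALI), in DMEM with the serum-free N2 supplement and antibiotics with glutamine. Controls received the solvent of the inhibitors where appropriate, and each library pooled up to 3 pancreata or explants. The labels do not say which bud the fresh pancreata came from. Culture, developmental time, dorsal origin and any difference in library preparation or sequencing run separated the same libraries, so they cannot be told apart. The remaining 9 libraries, pancreata labelled S1pr2 null at 14.5 dpc and explants with the S1pr2 blocker JTE013 alone or with CTGF, entered the fit and are given below only as ranges beside a value.

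At 14.5 dpc the pancreas is in the secondary transition, the period in which the branching epithelium forms its main cell types. Cells at the branch tips become acinar cells, which make the digestive enzymes, while the trunk epithelium gives rise to ducts and, by transient expression of Neurog3, to the hormone cells of the islets. The epithelium lies in mesenchyme with vessels, nerves and macrophages and is covered by mesothelium, and in the embryo it is perfused with blood. Explants at an air-liquid interface continue to branch and differentiate but have no circulation.

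Read depth was similar, with 12337316 to 12981401 counted reads per wt library and 12144568 to 13020514 per control library. At an adjusted p below 0.05 in edgeR's quasi-likelihood test, 4631 genes were higher in control explants (28.5% of the genes tested) and 4758 were lower (29.3%), so that 57.8% of the genes tested were called. By the criterion of regulation used in the study (adjusted p of at most 0.1, mean normalised read count above 100 in either group, fold change above 1.6 or below 0.6, protein-coding), 1298 genes were higher (8.94% of 14518 protein-coding genes tested) and 673 were lower (4.64%). Changes of at least 8-fold were called for 259 genes that were higher and 118 that were lower. The median log2 fold change over all genes tested was -0.02. The 50 most abundant genes held 10.7 to 11.5% of the reads in wt and 16 to 18% in control, and scaling by total counts alone lowered the median by a further 0.14 and gave 3347 higher and 6809 lower genes. Values below use trimmed mean of M-values (TMM) scaling, in which a normalised read count is a count scaled to the mean effective library size of the series. Counts of different genes depend on transcript length, and levels are therefore compared only between libraries for the same gene.

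**Figure D1:**
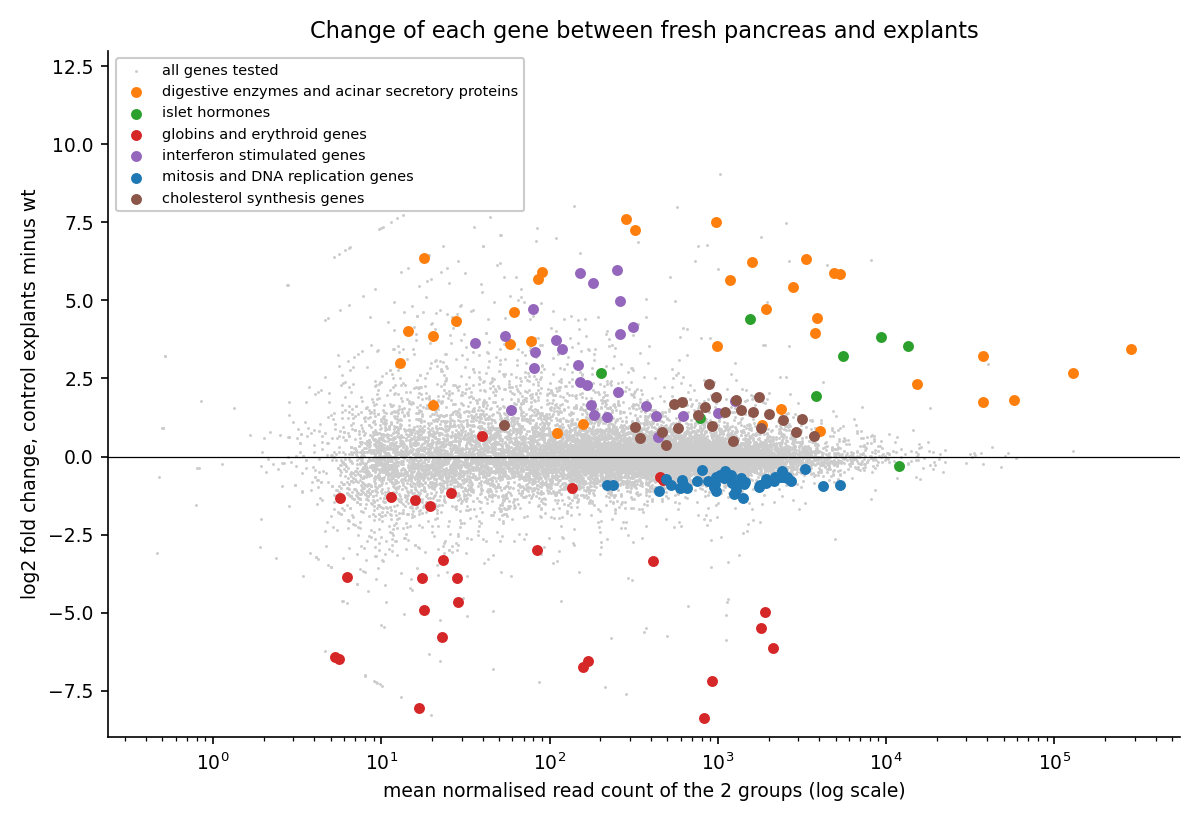
Change of each of the 16245 genes tested, with the mean normalised read count of both groups on a log axis against the log2 fold change of control explants minus wt. Digestive enzymes and hormones lay above 0 apart from Gcg, 27 of the 28 erythroid genes lay below 0, and all 44 mitosis and DNA replication genes lay in a narrow band below 0.

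Some genes separated fresh from cultured libraries almost as a switch. All 6 fresh and all 9 cultured libraries lay at least 8-fold apart for 5.07% of the genes that share over 50% of their sequence with another locus, and for 0.176% of those that share none. Rps3a1, a ribosomal protein gene of which 71% of the 50-base words of its transcripts also occur at another annotated locus, had normalised read counts of 2204, 2183 and 2243 in wt and 42.5, 38.2 and 32.3 in control. In the libraries labelled S1pr2 null it was at 1753 to 1945, in JTE and CTGF replicates 1 and 3 at 1182 and 1488, and in replicate 2 of that group at 80.2. Rpl34, with 7.78% of its words shared, was at 2017 to 2256 in all 6 fresh libraries and at 70.5 to 109 in all 9 cultured libraries, and the gene model Gm10260 was at 15.7 to 37.8 in the fresh and at 4794 to 6264 in the cultured libraries. These genes were chosen after their values were seen, and Rps3a1 and Gm10260 were also among the 12 largest changes in their direction. Of 79 ribosomal protein genes tested 19 were lower, 7 of them by at least 8-fold, and 1 was higher, while their median log2 fold change was -0.087. Over all genes tested 29.3% were lower and 28.5% higher, and 62 of the 79 share over 10% of their words. Among genes with a mean count above 100, an 8-fold change was seen for 1.13% of the 6820 genes with no shared word and for 11.6% of the 276 genes that share over 50% of their words. Reads that fit several loci were not counted by the authors, so for such genes a difference in the count need not be a difference in the transcript. Named genes that share over 10% of their words are marked below as uncertain, and the part of read assignment in their changes was not tested. Without all genes above that share, 4341 genes were higher and 4316 lower, an alternative added after the data were seen.

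**Figure D2:**
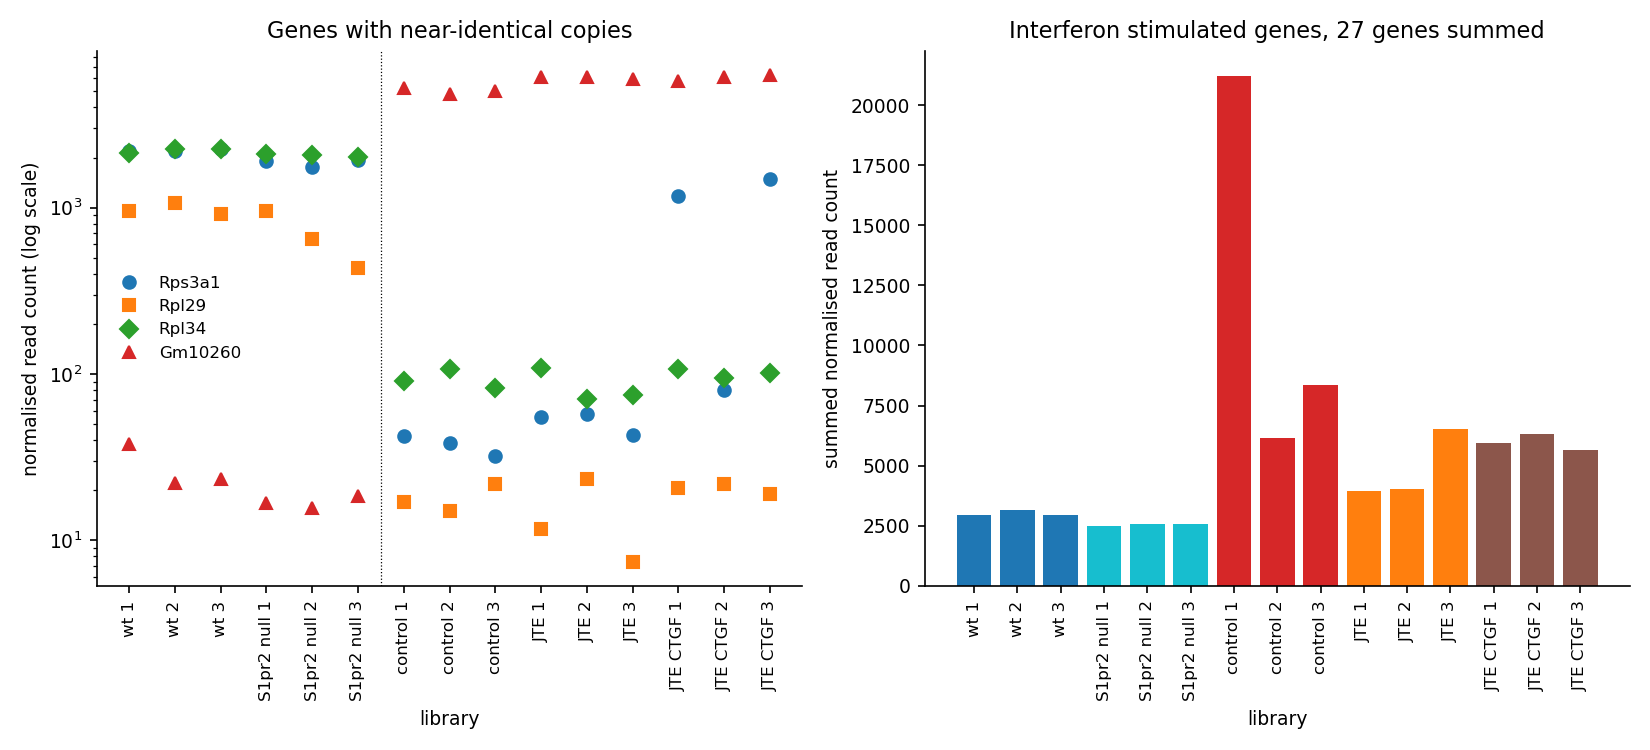
Left, normalised read counts on a log axis of 4 genes that share sequence with another locus in each of the 15 libraries, where the dotted line divides the 6 fresh from the 9 cultured libraries. Right, the summed normalised read count of the 27 interferon stimulated genes in each library, which was 21200 in control replicate 1 and at most 8366 in every other library.

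Erythroid transcripts were far lower in the explants. Of 28 globin and erythroid genes tested, 26 were lower and 1 was higher, with a median log2 fold change of -3.89. Among all genes tested 29.3% were lower and 28.5% higher. The whole list held 0.156 ± 0.0101% (SD, n = 3) in wt and 0.00983 ± 0.00114% in control of all counted reads, 15.8 times less, and no control library overlapped a wt library. With 3 libraries against 3, an exact two-sided permutation test cannot give less than 0.1, which was the value here and for every other list whose groups did not overlap in their share of reads. Alas2 (chrX:150547375-150570638 in mm10), the first enzyme of haem synthesis in red blood cells, had normalised counts of 291, 322 and 326 in wt and 4.25, 2.01 and 2.08 in control (log2 fold change -6.76 with an SE of 0.38, adjusted p = 2.55e-10 by edgeR). Slc4a1, the anion exchanger of the red cell membrane, was at 216, 416 and 371 in wt and 2.12, 3.02 and 5.21 in control (-6.54 ± 0.68). Neither gene shares words with another locus, but exons of another gene overlap 12.9% of the exon length of Alas2. The embryonic globins Hbb-y and Hba-x, which share no words, fell from 3706 to 119 (log2 fold change -4.97, edgeR adjusted p = 3.61e-08) and from 748 to 73.9 (-3.35, edgeR adjusted p = 1.92e-09), and were named after their values were seen. The adult globins also fell but are uncertain, since they share sequence with their copies. Hba-a1 fell 44.6-fold, Hba-a2 331-fold, Hbb-bs 70.6-fold and Hbb-bt 146-fold, and they shared 72.3, 89.3, 53.2 and 58.3% of their words. The exception was Epor, the erythropoietin receptor, at 30.9 in wt and 48.9 in control (0.67, edgeR adjusted p = 0.0215), which was named after its value was seen. Platelet genes moved the same way. Of 6 tested 5 were lower, with a median of -1.56, among them Pf4, platelet factor 4, at 123, 113 and 111 in wt and 34, 20.1 and 39.6 in control (log2 fold change -1.89 with an SE of 0.36, adjusted p = 2.32e-04 by edgeR), and Nrgn at 126 in wt and 78.9 in control. In a bulk sample fewer cells of a type and less RNA per cell cannot be told apart, here and in all lists below.

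Erythroid genes are known targets of GATA factors, which bind the word AGATAA. It was searched on both strands in the 250 bases before each RefSeq start (GRCm38.p6, the build of mm10) and was found in 8 of the 20 erythroid list genes that have a RefSeq promoter entry, or 40.0%, and in 11.4% of all 27025 genes with an entry. The printed windows are 60 bases long and run 5′ to 3′ in the direction of the gene, with the word or its reverse complement in capitals. That of Alas2 lies at chrX:150547304-150547363, plus strand, that of Hbb-bs at chr7:103828106-103828165, minus strand. They are shown because both genes were among the 12 largest falls, and the word was found in no other erythroid gene among those falls. It was also found in Epor, which was higher, and in Icam4, which did not pass the test.
Alas2: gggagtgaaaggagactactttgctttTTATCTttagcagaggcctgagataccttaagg
Hbb-bs: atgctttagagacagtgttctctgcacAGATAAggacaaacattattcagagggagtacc

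Acinar genes rose most in number of reads. Of 35 digestive enzymes and secretory proteins tested, 34 were higher and none was lower, where 28.5% of all genes tested were higher. The list median log2 fold change was 3.97. Only Ctrc did not pass the test, at 83 in wt and 139 in control (0.75, edgeR adjusted p = 0.354). Their summed share was 1.24 ± 0.33% (SD, n = 3) in wt and 8.14 ± 1.33% in control of all reads. Ctrb1, a chymotrypsinogen that was named after its value was seen, was the most abundant gene of the control libraries, with normalised counts of 31694, 66305 and 47221 in wt and 580966, 554833 and 430572 in control. Cpa1, carboxypeptidase A1 of tip progenitors and acinar cells, was at 22528, 32565 and 21834 in wt and 93428, 100868 and 73876 in control (log2 fold change 1.8 with an SE of 0.19, adjusted p = 5.74e-07 by edgeR). Rnase1, the pancreatic ribonuclease, was at 9.90, 12.4 and 9.38 in wt and 2397, 2315 and 1094 in control, a 181-fold rise. Dmbt1, a secreted scavenger receptor protein, rose 194-fold from 2.80 to 568 and was below 6 in every wt library. The trypsinogens Try4 and Prss1 rose 154-fold and 81.1-fold, and Amy2a5, an amylase, was at 2.70, 2.87 and 1.88 in wt and 65.8, 58.3 and 35.4 in control (ratio 21.4, exact 95% Poisson interval 10.6 to 50.5). These 3 genes share 65.6, 54.9 and 53.5% of their words with neighbouring family members and are uncertain, but among the 22 list genes that share at most 10% of words 21 were higher, with a median of 3.33. The level varied within groups. Wt replicate 2 was the highest wt library for 27 of the 35 genes, and control replicate 3 was the lowest control library for all 35.

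The transcription factors of acinar cells changed less than the enzymes, with 2 of 6 higher, 1 lower and a median of 0.19. Over all genes tested 28.5% were higher and 29.3% lower. Ptf1a, which acinar cells need to form, was at 464, 920.4 and 652 in wt and 1163, 1068 and 825 in control (log2 fold change 0.59 with an SE of 0.18, adjusted p = 0.0116 by edgeR), so that the lowest control library lay below the highest wt library. Exons of another gene overlap 40.4% of its exon length. The call was lost without wt replicate 1 (log2 fold change 0.37) and without control replicate 1 (0.48). Xbp1, a regulator of secretory capacity, rose 1.81-fold (0.86 ± 0.098), and Nr5a2, a nuclear receptor of acinar genes, fell by 0.512 on the log2 scale (1501, 1650.3 and 1638 in wt and 1190.2, 1211 and 956 in control). Rbpjl, Bhlha15 and Gata4 did not pass the test, at 4593 in wt and 4340.1 in control for the first of them. Of 28 chaperones and other genes of protein folding in the endoplasmic reticulum 20 were higher and 3 lower, with a median of 0.33. The largest rises were Pdia2, a disulfide isomerase of pancreas whose exons overlap those of another gene over 92.5% of their length, and Derl3, a membrane protein of degradation in that compartment, which rose from 38.7 to 327.

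Members of the Reg family, secreted lectins of acinar and gut cells that are known to rise in pancreatic injury, were at low levels in fresh pancreas. All 5 tested were higher, where 28.5% of all genes tested were. The median log2 fold change of the 5 was 8.04, or 6.29 with genes at 0 in a group set to their bound. Reg3b was at 5.40, 1.92 and 3.75 in wt and 3068, 1601 and 1520.4 in control (log2 fold change 9.06 with an SE of 0.87, adjusted p = 1.44e-07 by edgeR), and Reg1 was at 204, 228 and 178 in wt and 21101, 14518 and 12246 in control (6.29 ± 0.38). Reg3g was at 0, 0.96 and 1.88 in wt and 323, 312 and 198 in control (ratio 298, exact 95% Poisson interval 102 to 1448, for counting error only), and Reg3d rose from 2.21 to 123. Control replicate 1 was the highest and replicate 3 the lowest control library for all 5 genes. In both groups with JTE013 Reg3b was at 92.9 to 2055 and Reg1 at 1069 to 15044.

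Hormone genes rose, other than glucagon, where 28.5% of all genes tested were higher. Of 8 tested 7 were higher, with a median log2 fold change of 2.95, and together they held 0.169 ± 0.0163% (SD, n = 3) in wt and 0.566 ± 0.0257% in control of all reads. Ins1 had normalised counts of 908, 1761 and 1044 in wt and 18525, 16502 and 17256 in control (log2 fold change 3.82 with an SE of 0.26, adjusted p = 2.15e-09 by edgeR), and Ins2 of 1576, 2955 and 1867 in wt and 26227, 25296 and 23348 in control (log2 fold change 3.55 with an SE of 0.27, adjusted p = 9.04e-09 by edgeR). No control library came near a wt library for either gene, and wt replicate 2 was well above the other two for Ins1. Iapp, the amylin that beta cells release with insulin, rose 9.39-fold, and Sst, the somatostatin of delta cells, 21.2-fold, at 92.7, 198 and 129.5 in wt and 2982, 3105 and 2783 in control. Ghrl, ghrelin, rose 2.33-fold from 469 to 1090.4. Gcg, the glucagon of alpha cells, was at 13275, 13307 and 12873 in wt and 10866, 12724 and 8113 in control and did not pass the test (log2 fold change -0.32 with an SE of 0.18, adjusted p = 0.135 by edgeR), although its groups did not overlap and it passed as lower without control replicate 2 (log2 fold change -0.47), with the replicate block on the 6 libraries (-0.32), with no filter on low counts (-0.29) and with total counts only (-0.46). The ranges in the libraries labelled S1pr2 null were 52.6 to 95.9 for Ins1 and 6656 to 8675 for Gcg. In the JTE013 groups Ins1 was at 506 to 2002, far below control, and Sst at 2492 to 3148, which overlaps control.

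Genes of hormone processing, granules and glucose sensing followed, with 18 of 23 higher, 1 lower and a median of 1.43. The shares over all genes tested were 28.5% higher and 29.3% lower. Scg5, a chaperone of the prohormone convertase Pcsk2, was at 112, 102 and 106 in wt and 1563, 1464 and 1434 in control (log2 fold change 3.8 with an SE of 0.10, adjusted p = 2.57e-14 by edgeR), and Scg2, a granin, at 255, 360.1 and 274 in wt and 3619, 3732 and 3203 in control. Slc30a8, which loads zinc into insulin granules, rose 7.78-fold and Slc2a2, the glucose transporter of beta cells, 5.89-fold. The member that fell was Trpm5, a cation channel, at 538 in wt and 168 in control (-1.68, edgeR adjusted p = 8.46e-09). The granins Chga and Chgb did not pass the test, with Chgb at 6470.2 in wt and 5994 in control, and Ucn3, a late marker of mature beta cells, stayed below 5 in the mean of either group.

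Of 21 endocrine commitment and islet transcription factors 7 were higher and 8 lower, with a median of -0.14, against 28.5 and 29.3% of all genes tested. Neurog3, which commits progenitors to the endocrine fate and is then switched off, was at 2328, 2528 and 2307 in wt and 504, 451 and 362 in control (log2 fold change -2.44 with an SE of 0.19, adjusted p = 9.94e-09 by edgeR). Pax4, a factor of early beta and delta cells, fell 2.67-fold from 215 to 80.5. Mafa, a factor of maturing beta cells, was at 39.6, 79.5 and 41.3 in wt and 323, 334 and 341 in control (log2 fold change 2.64 with an SE of 0.21, adjusted p = 1.61e-08 by edgeR), and no control library came near a wt library. Exons of another gene overlap 17.7% of the exon length of Neurog3.

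**Figure D3:**
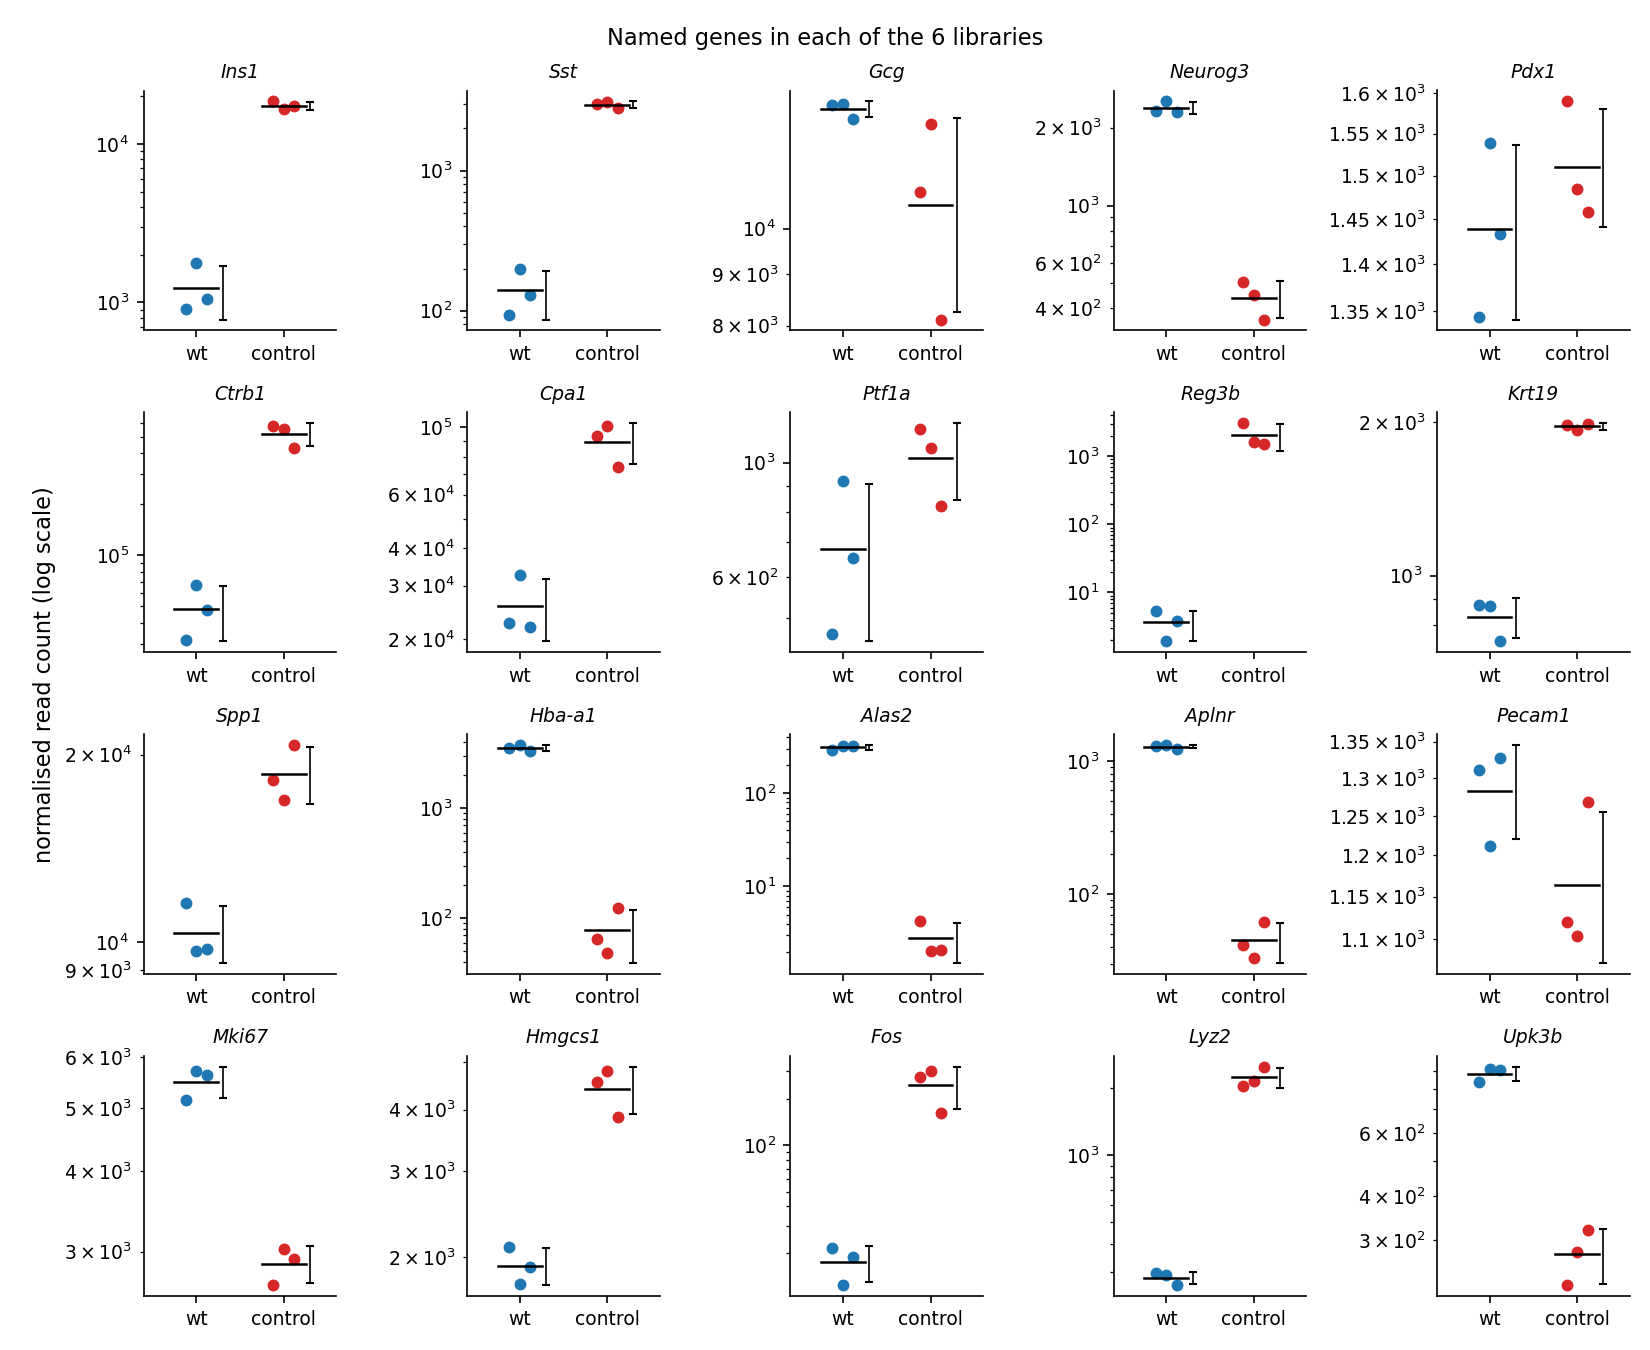
Normalised read counts on log axes of 20 named genes in the 3 wt and 3 control libraries. Lines are group means and bars are the SD, and the groups overlapped for Pdx1, Ptf1a and Pecam1.

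Of 20 factors of progenitors and of the trunk epithelium 7 were higher and 5 lower, with a median of 0.12, shares near the 28.5 and 29.3% over all genes. Pdx1, which marks pancreatic epithelium and later beta cells, was at 1344, 1539 and 1433 in wt and 1589, 1485 and 1458 in control (log2 fold change 0.071 with an SE of 0.079, adjusted p = 0.464 by edgeR), and Sox9, of trunk progenitors and ducts, at 2239, 2612 and 2534 in wt and 2457, 2329 and 2274 in control (edgeR adjusted p = 0.566). Nkx6-1 fell by 0.29 on the log2 scale, and its relative Nkx6-2 rose 7.10-fold, at 54.9, 59.4 and 61 in wt and 448, 407 and 392 in control (log2 fold change 2.83 with an SE of 0.20, adjusted p = 4.39e-09 by edgeR), with 12.8% of its exon length overlapped by another gene. In the JTE013 groups Nkx6-2 was at only 3.72 to 15.9. Rhov, an atypical small GTPase of endocrine progenitors, rose 2.05-fold and Bmp7, a secreted growth factor, fell 1.89-fold. Rbpj, the DNA-binding partner of Notch and Ptf1a, fell 3.10-fold from 424 to 136 but shares 10.3% of its words and is uncertain.

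Duct and general epithelial genes rose moderately, where 28.5% of all genes tested were higher and 29.3% lower. Of 21 duct markers 14 were higher and 2 lower, with a median of 0.58, and of 18 general epithelial genes 13 were higher and none lower, with a median of 0.38. Krt19, the keratin that marks ducts, was at 875, 873 and 743 in wt and 1977, 1927 and 1981 in control (log2 fold change 1.24 with an SE of 0.063, adjusted p = 6.75e-11 by edgeR), and Krt18 rose 2.46-fold. Spp1, osteopontin, which ducts and macrophages make, was at 11566, 9653 and 9749 in wt and 18187, 16903 and 20729.9 in control and rose 1.80-fold. Clu, a secreted chaperone, rose 4.71-fold from 5119 to 24087, Anxa3 rose 2.56-fold, and Tff2, a trefoil peptide of mucous cells, was at 6.30, 4.79 and 8.45 in wt and 177, 147 and 132 in control. The lower members were Car14 and Tff3, of which Car14 was at 141 in wt and 63.1 in control. Of the junction and epithelial genes Cldn4 rose 2.48-fold, Elf3 1.82-fold, Spint1 1.64-fold and Cldn7 1.58-fold, whereas Cdh1, the epithelial cadherin, was at 8239.8 in wt and 8973 in control and did not pass the test. The share of reads in general epithelial genes was 0.32 ± 0.013% (SD, n = 3) in wt and 0.389 ± 0.0213% in control.

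Of 21 Notch pathway members 7 were higher and 7 lower, with a median of 0.002, near the shares of all genes tested (28.5% higher and 29.3% lower). The rises were led by Notch4 (3.10-fold), its ligand Dll4 (3.08-fold, 316, 342 and 364 in wt and 993, 1029 and 1124 in control) and the target Hey1 (2.27-fold). Hey2, Nrarp and Jag1 were lower, with log2 fold changes of -0.717, -0.6 and -0.448. The largest falls were Dll3, a Notch ligand, at 58.5 in wt and 18.7 in control, and Rbpj, given above.

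Proliferation genes were lower without exception. All 44 mitosis and DNA replication genes fell, with a median log2 fold change of -0.81, where 29.3% of all genes tested fell. Mki67, which marks cycling cells, was at 5152, 5715 and 5625 in wt and 2667, 3024 and 2928 in control (log2 fold change -0.94 with an SE of 0.063, adjusted p = 1.91e-09 by edgeR). Rrm2, a subunit of ribonucleotide reductase, fell 2.51-fold (1945, 2083 and 2001 in wt and 761, 802 and 836 in control) and Aurkb, a mitotic kinase, 2.13-fold. Pcna and Ccnb1 fell 2.31-fold and 2.17-fold but share 19.1 and 23.4% of their words. The 39 members with at most 10% shared words were also all lower. No control library overlapped a wt library for any of the 44 genes. Groups were also apart for 22 of 26 endothelial and 14 of 21 Notch pathway genes, and the share over all genes was not counted. In the JTE013 groups Mki67 was lower still, at 844 to 1552. The cell cycle word TTTGAA was found in the promoters of 9 of 35 list genes with an entry, or 25.7%, against 18.3% of all genes.

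Genes of lipid synthesis rose as a whole. All 25 cholesterol synthesis genes were higher, with a median of 1.2, and all 14 fatty acid synthesis genes, with a median of 0.97, where 28.5% of all genes tested rose. Hmgcs1, which makes the precursor HMG-CoA, was at 2099, 1768 and 1908 in wt and 4561, 4798 and 3865 in control (log2 fold change 1.2 with an SE of 0.17, adjusted p = 1.77e-05 by edgeR). Insig1, the sterol sensor partner, rose 3.75-fold, Lss, lanosterol synthase, 3.49-fold, and Fdps, of which 15.5% of words are shared, 3.75-fold. Of the fatty acid genes Scd1, a desaturase, rose most, 13.9-fold (145, 107 and 108 in wt and 1762, 1974 and 1272 in control). Scd2 rose 2.94-fold, Fads1 2.16-fold and Me1, the malic enzyme, which is uncertain with 22.9% shared words, 2.76-fold. Control replicate 3 was the lowest control library for all 25 cholesterol genes, as it was for the digestive enzymes, but stayed above every wt library. In the JTE013 groups Hmgcs1 was at 1908 to 3694, which overlaps wt and lies below every control library. The sterol response word TCACNCCAC was found in the promoter of 1 of 17 cholesterol genes with an entry (Hmgcs1) against 1.22% of all genes, and CATTGGC in 4 of the 17 against 5.05%.

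Of 34 genes of glycolysis and hypoxia 9 were higher and 12 lower, with a median of -0.15, near the shares of all genes. Slc2a1, the widespread glucose transporter, was at 977, 1143 and 1069 in wt and 587, 655 and 615 in control (log2 fold change -0.78 with an SE of 0.079, adjusted p = 3.12e-07 by edgeR). Hif3a fell 2.78-fold and Eno1, an enolase that shares 26% of its words, 3.14-fold. Egln3, an oxygen-sensing hydroxylase, rose 2.30-fold and Aldoc, an aldolase, 2.08-fold.

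Interferon stimulated genes rose in every control library but to very different levels. All 27 were higher, where 28.5% of all genes tested were, with a median log2 fold change of 2.85. For each of the 27 all control libraries lay above all wt libraries. Groups were also apart for 22 of 26 endothelial genes, and the share over all genes was not counted. Summed over the list, the normalised counts were 2948, 3176 and 2960 in wt and 21200, 6159 and 8366 in control. Replicate 1 was the highest control library for 26 of the 27 genes, with a median 4.45 times the mean of the other two. Isg15, a ubiquitin-like protein, was at 13.5, 20.1 and 14.1 in wt and 1224, 108 and 186 in control (log2 fold change 4.98 with an SE of 0.81, adjusted p = 5.59e-05 by edgeR). Ifit1, which binds foreign RNA, was at 8.10, 3.83 and 2.82 in wt and 728, 51.3 and 114 in control (5.87 ± 0.94), Ifi44 at 7.20, 10.5 and 4.69 in wt and 866, 86.5 and 111 in control and the chemokine Cxcl10 at 5.40, 7.66 and 10.3 in wt and 889, 220.2 and 386 in control. Without control replicate 1, 26 of the 27 were still higher and the median was 2.02. The summed level was 2482 to 2593 in the libraries labelled S1pr2 null and 3936 to 6546 in the JTE013 groups. The class I histocompatibility genes H2-K1 and H2-D1, named after their values were seen, were at 659.9, 857 and 701 in wt and 6271, 3822 and 2938 in control and at 625, 761 and 667 in wt and 4368, 3119.6 and 4574 in control, and H2-D1 is uncertain, with 12.8% of its words shared.

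The interferon response word GAAA, any 2 bases and again GAAA was found, on either strand, in the 250 bases before the start of 11 of the 22 list genes with a promoter entry, or 50.0%, against 3.46% of all genes with one. The windows of Isg15 (chr4:156200850-156200909, minus strand), Ifit1 (chr19:34640779-34640838, plus strand) and Cxcl10 (chr5:92349068-92349127, minus strand) are shown, since these genes are named above, and that of Bst2 (chr8:71537562-71537621, minus strand), an antiviral membrane protein, because its words overlap as in Isg15. Each is 60 bases of GRCm38.p6 in the direction of the gene, and capitals mark the word or its reverse complement. Matches overlap by 4 bases in Isg15 and Bst2 and are printed as 1 run.
Isg15: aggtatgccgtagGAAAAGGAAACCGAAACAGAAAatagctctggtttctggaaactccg
Ifit1: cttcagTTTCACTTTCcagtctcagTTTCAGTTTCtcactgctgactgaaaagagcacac
Cxcl10: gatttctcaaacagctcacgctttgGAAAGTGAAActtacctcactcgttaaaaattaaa
Bst2: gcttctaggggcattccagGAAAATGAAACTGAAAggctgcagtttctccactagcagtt

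Inflammatory genes and macrophage genes were higher as well. Their counts are to be read against the 28.5% of all genes that were higher and the 29.3% that were lower. Of 22 inflammatory and acute phase genes 17 were higher and 1 lower, with a median of 2.73. Saa3, a serum amyloid protein, was at 5.40, 1.92 and 1.88 in wt and 553, 57.3 and 292 in control (log2 fold change 6.54 with an SE of 1.17, adjusted p = 1.37e-04 by edgeR), and here replicate 2 was far below replicate 1. The chemokine Ccl2 was at 12.6, 3.83 and 6.57 in wt and 219.8, 126 and 258 in control, the complement component C3 rose 17.1-fold, and Osmr, the oncostatin M receptor, rose 4.47-fold. The lower member was the chemokine Cxcl12, at 3215 in wt and 2047 in control. Of 27 macrophage and leukocyte genes 19 were higher and 3 lower, with a median of 1.2 and a read share of 0.0437 ± 0.00146% (SD, n = 3) in wt and 0.0943 ± 0.00438% in control. Ptprc, the CD45 antigen of all leukocytes, was at 53.1, 58.4 and 71.3 in wt and 149.7, 181 and 166 in control (log2 fold change 1.44 with an SE of 0.21, adjusted p = 1.88e-05 by edgeR). Cd14, a receptor for bacterial lipopolysaccharide, was at 36, 24.9 and 38.5 in wt and 639, 591 and 686 in control, Mpeg1, a perforin of macrophages, at 154, 153 and 166 in wt and 917, 1014 and 964 in control, and Cd68 rose 4.45-fold. Lyz2, the macrophage lysozyme, rose 7.90-fold with 15.4% of its words shared. Csf1r, the receptor that macrophages need to survive, did not pass the test, at 563 in wt and 659 in control. The members that fell were the scavenger receptor Cd163, the mannose receptor Mrc1 (621, 508 and 634 in wt and 273, 282 and 307 in control) and the neutrophil enzyme Mpo, all of which were named after their values were seen. Mmp12, an elastase of macrophages and among the 12 largest rises, was at 0, 0 and 0.94 in wt and 77.5, 135 and 105 in control (ratio 342, exact 95% Poisson interval 61 to 13570.0).

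Immediate early genes, which are known to respond within minutes to stimulation or handling, were higher for 22 of 26 tested and lower for 2 (Klf4 and Nr4a2, the latter at 120.2 in wt and 88.8 in control), with a median of 1.24. Among all genes tested 28.5% were higher and 29.3% lower. Fos was at 21.6, 12.4 and 18.8 in wt and 275, 304 and 161 in control (log2 fold change 3.79 with an SE of 0.24, adjusted p = 9.42e-10 by edgeR), Egr2 at 5.40, 1.92 and 5.63 in wt and 128, 159 and 124 in control and Junb at 129.6, 135 and 105 in wt and 1234, 1061 and 842 in control, and Ier3 rose 6.82-fold. An exact form of the serum response element was searched in 22 promoters of the list and found in none, against 0.074% of all genes. Of 27 genes of matrix remodelling and wounds 18 were higher and 3 lower, with a median of 0.67, against the same shares of all genes. The urokinase Plau was at 113, 112 and 148 in wt and 837, 1223 and 1491 in control (log2 fold change 3.25 with an SE of 0.19, adjusted p = 3.24e-10 by edgeR) and its receptor Plaur at 26.1, 32.6 and 27.2 in wt and 293, 294 and 341 in control, while the matrix protein Tnc rose 7.02-fold and the gelatinase Mmp9 5.60-fold. The lower members were Lox, Loxl2 and Tgfbi, with Lox at 1418 in wt and 745 in control. Of 19 YAP targets 9 were higher and 5 lower, where 28.5 and 29.3% of all genes were, with a median of 0.11. Ankrd1 was at 2.70, 0.96 and 1.88 in wt and 118, 114 and 86.4 in control (ratio 56.9, exact 95% Poisson interval 25.8 to 156), and Ccn1, a matrix protein, rose 3.41-fold, Tgfb2 2.31-fold and Igfbp3 2.59-fold.

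Stress genes rose in part, where 28.5% of all genes tested were higher and 29.3% lower. Of 20 p53 targets 16 were higher and 1 lower, with a median of 0.61, among them the cell death genes Pmaip1 (16.2, 7.66 and 8.45 in wt and 155, 133 and 172 in control) and Bbc3 (3.10-fold), the cytokine Gdf15 (12.4-fold) and Trp53inp1 (3.61-fold). Cdkn1a, the p21 inhibitor of the cell cycle, was at 1277 in wt and 1384 in control and did not pass the test. Of 26 genes of the integrated stress response 19 were higher and 3 lower, with a median of 0.6. Chac1, which breaks down glutathione, was at 9.90, 7.66 and 15 in wt and 269.7, 252 and 172 in control (log2 fold change 4.4 with an SE of 0.26, adjusted p = 4.44e-10 by edgeR), Atf3 rose 6.22-fold, Trib3, a pseudokinase, 5.88-fold and Nupr1, a stress protein, 5.29-fold. In the JTE013 groups these genes were higher again, with Trib3 at 3346 to 5019 against 123, 144 and 101 in control. Nrf2 targets with metallothioneins (8 higher and 4 lower of 21), iron handling genes (5 and 1 of 13), selenoprotein genes (9 and 4 of 20) and FoxO and insulin response genes (9 and 3 of 19) had medians of 0.11, 0.069, 0.12 and 0.29. The counts of these lists are to be read against the 28.5% of all genes that were higher and the 29.3% that were lower. Members that rose included Cp, the plasma copper protein ceruloplasmin, at 22.5, 10.5 and 7.51 in wt and 165, 151 and 171 in control, the ferritin heavy chain Fth1 (1.75-fold higher) and Fbxo32, a ubiquitin ligase induced by starvation (3.39-fold higher). Of 10 mitochondrially encoded genes 5 were higher and none lower, with a median of 0.19 and mt-Nd6 the most changed, at 1321, 1308 and 1215 in wt and 2054, 1543 and 1754 in control.

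**Figure D4:**
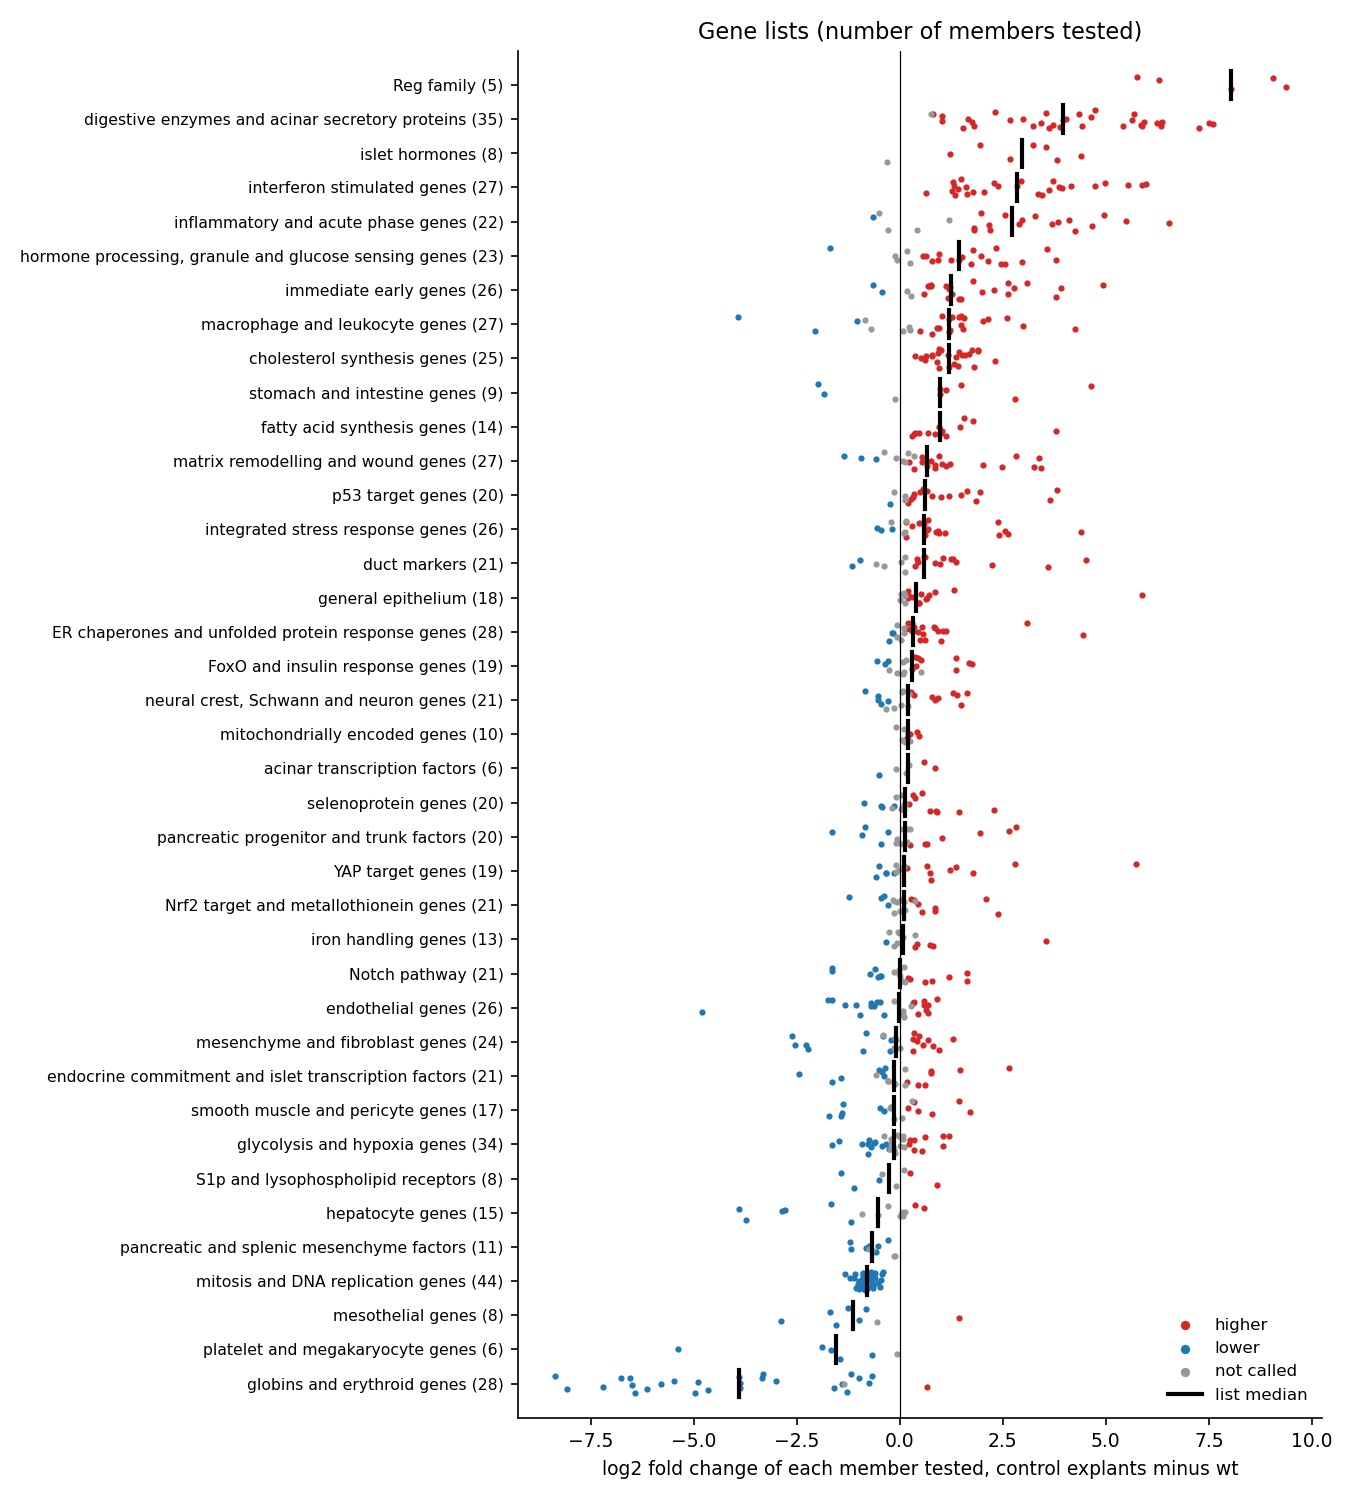
Log2 fold change of every tested member of the 39 gene lists, control explants minus wt, where red and blue points passed an adjusted p of 0.05 and bars are list medians. The lists are ordered by their median, from -3.89 for globins and erythroid genes to 8.04 for the Reg family.

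Of 26 endothelial genes 9 were higher and 12 lower, where 28.5 and 29.3% of all genes were, with a median of -0.030, and their share of reads was 0.135 ± 0.00104% (SD, n = 3) in wt and 0.104 ± 0.0115% in control. Pecam1, which marks all endothelium, was at 1311, 1212 and 1327 in wt and 1120.1, 1104 and 1268 in control and did not pass the test (log2 fold change -0.14 with an SE of 0.077, adjusted p = 0.126 by edgeR), but passed as lower without control replicate 3 (log2 fold change -0.21) and with total counts only (-0.28). Aplnr, the apelin receptor of sprouting and venous endothelium, was at 1287, 1307 and 1231 in wt and 41.4, 33.2 and 62.5 in control (log2 fold change -4.8 with an SE of 0.11, adjusted p = 3.01e-15 by edgeR), the largest fall of the list and 27.9-fold lower. Tek, the angiopoietin receptor, fell 3.32-fold, Vwf, von Willebrand factor, 3.13-fold, and Plvap, of fenestrated capillaries, 2.53-fold. Control replicate 3 was the highest control library for 24 of the 26 genes, the reverse of its place in the acinar list. In the other cultured groups Aplnr was at 13.8 to 35.5, and in the libraries labelled S1pr2 null at 1329 to 1482.

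Mesothelial genes mostly fell, where 29.3% of all genes tested were lower and 28.5% higher. Of 8 tested 6 were lower and 1 higher (Msln, at 8.96 in wt and 24.5 in control), with a median of -1.12 and a read share of 0.0492 ± 0.00161% (SD, n = 3) in wt and 0.0182 ± 0.00296% in control. Upk3b, which marks mesothelium, was at 834, 908 and 903 in wt and 225, 277 and 322 in control (log2 fold change -1.68 with an SE of 0.13, adjusted p = 9.94e-09 by edgeR), and Upk1b at 165, 154 and 173 in wt and 13.8, 22.1 and 30.2 in control. Lrrn4 fell 2.93-fold and Podxl, a sialomucin that vessels also express, 2.40-fold. Of 11 factors of pancreatic and splenic mesenchyme 7 were lower and none higher, with a median of -0.66, against the same shares of all genes. Among them Nkx3-2, of mesenchyme beside the dorsal bud, was at 250.3, 217 and 248 in wt and 120.0, 78.4 and 119.8 in control, Tlx1, which the spleen needs to form, at 203, 170.5 and 158 in wt and 110.4, 101 and 104 in control, and Wt1 fell 1.75-fold.

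Mesenchyme, smooth muscle and neural genes are to be read against the 28.5% of all genes that were higher and the 29.3% that were lower. Of 24 mesenchymal genes 10 were higher and 9 lower, with a median of -0.1. Col1a1, the main chain of fibrillar collagen, was at 39044, 41843 and 41221 in wt and 34057, 34881 and 35011 in control (log2 fold change -0.23 with an SE of 0.073, adjusted p = 0.0118 by edgeR). Fbln5, a protein of elastic fibres, fell 4.87-fold and Twist2 1.85-fold, while Thy1 rose 2.46-fold and Fn1, fibronectin, 1.93-fold. Of 17 smooth muscle and pericyte genes 6 were higher and 7 lower, with a median of -0.14. Acta2, smooth muscle actin, was at 630.1, 592 and 724 in wt and 524, 577 and 549.9 in control and did not pass the test (edgeR adjusted p = 0.0676). It passed as lower without wt replicate 2 (log2 fold change -0.30), with only the 6 libraries (-0.22), with the replicate block on them (-0.21) and with total counts only (-0.38). Tagln rose 2.72-fold, Rgs5, of pericytes, rose 1.72-fold, Myl9 fell 2.69-fold and Tpm2 1.39-fold. Of 21 neural genes 9 were higher and 5 lower, with a median of 0.2. Sox10, of glia and neural crest, was at 229.6, 228 and 203 in wt and 97.7, 123 and 147 in control (log2 fold change -0.84 with an SE of 0.14, adjusted p = 5.67e-05 by edgeR), whereas Ngfr, the low-affinity neurotrophin receptor, rose 3.09-fold, Prph, a neurofilament of peripheral neurons, 2.62-fold, Tubb3 1.82-fold and S100b 2.80-fold.

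Marker lists of liver and gut were also examined. The counts of both lists are to be read against the 28.5% of all genes that were higher and the 29.3% that were lower. Hepatocyte genes held 0.136 ± 0.00269% (SD, n = 3) in wt and 0.141 ± 0.0112% in control of the reads, and of 15 tested 2 were higher (Ambp and Rbp4) and 6 lower, with a median of -0.53. That median was -0.29 without genes that share over 10% of their words, and -1.01 to 0.07 with each library left out in turn. Afp, which fetal liver makes, was at 655, 747 and 995 in wt and 407, 339 and 317 in control (log2 fold change -1.17 with an SE of 0.48, adjusted p = 0.0473 by edgeR), and its call was lost when any 1 of the 6 libraries was left out. Serpina1b, an antitrypsin gene, fell 15-fold, and its relatives Serpina1e and Serpina1c, among the 12 largest falls, 56.2-fold and 48.9-fold. All 3 are uncertain, Serpina1c also by exon overlap, with 24.9, 34.6 and 74.2% shared words, and Alb and Ttr did not pass the test. Of 18 stomach and intestine genes 9 could be tested, of which 6 were higher and 2 lower, with a median of 0.98. Vil1, villin of the brush border, rose 2.16-fold from 155 to 334 and was the only one above 100, and Cdx1 and Cdx2 had too few reads to be tested.

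**Figure D5:**
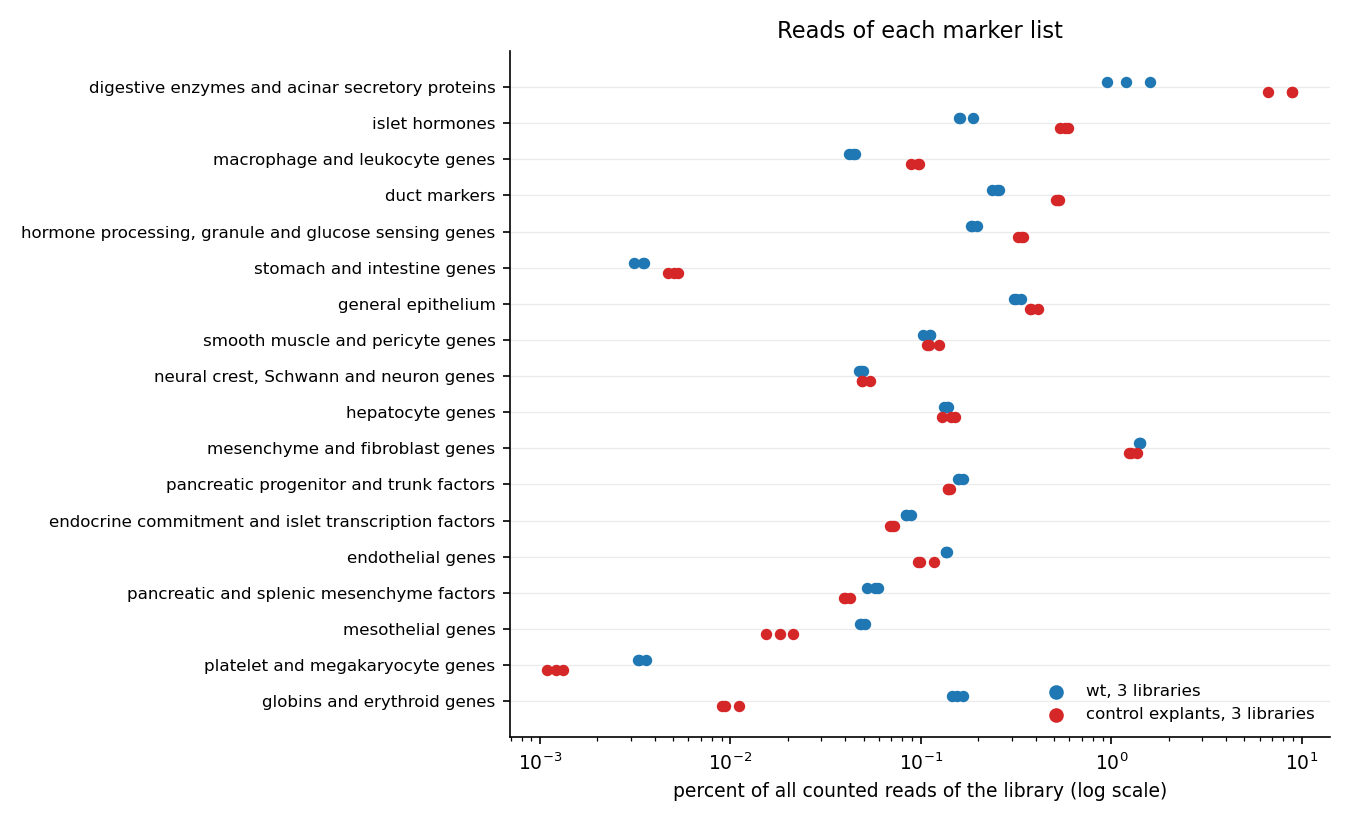
Percent of all counted reads of a library, on a log axis, that fell in each of 18 marker lists, with 1 point per library. The groups overlapped for hepatocyte, smooth muscle and neural genes and were apart for the other 15 lists.

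Of 8 receptors of signalling lipids, the subject of the study, 2 were higher and 3 lower, with a median of -0.26. These counts are near the shares of all genes tested (28.5% higher and 29.3% lower). S1pr2, a receptor of sphingosine-1-phosphate, was at 772, 762 and 762 in wt and 810.1, 796 and 848 in control and did not pass the test (log2 fold change 0.1 with an SE of 0.072, adjusted p = 0.27 by edgeR). S1pr3 was at 1293, 1110.1 and 1254 in wt and 490.5, 569 and 619.6 in control (log2 fold change -1.12 with an SE of 0.097, adjusted p = 4.14e-08 by edgeR), and Lpar1, a receptor of lysophosphatidic acid, at 791, 612 and 627 in wt and 239, 212 and 306 in control (log2 fold change -1.43 with an SE of 0.14, adjusted p = 1.37e-07 by edgeR). S1pr1, of endothelium, rose 1.87-fold and Lpar4 fell 1.41-fold. In the libraries labelled S1pr2 null the count of S1pr2 was not lower but higher, at 1263 to 1458, and in the JTE013 groups it was at 769 to 1085. By the paper, an inserted cassette disrupts an exon of the null allele, and null pancreata had no S1pr2 protein by western blot.

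The 12 largest rises among protein-coding genes past the thresholds were, besides genes already given, 1810009J06Rik, Gm8909, Wfdc18, Serpina3i and Gm5771. Wfdc18, a secreted protein with a whey acidic protein domain, was at 0, 0 and 0.94 in wt and 126, 101 and 88.5 in control (ratio 338, exact 95% Poisson interval 60.2 to 13390.0), and at 0 reads in every library of both JTE013 groups. 1810009J06Rik had no read in wt and 128, 85.5 and 99.97 normalised counts in control, at least 37.4-fold higher against a floor of 3 reads per library, but shares 81.5% of its words. Gm5771 was at 27, 33.5 and 21.6 in wt and 4401, 4251 and 2026 in control, with 55.4% shared, Serpina3i, a serine protease inhibitor, at 0.90, 0.96 and 0 in wt and 96.6, 90.5 and 121 in control, with 15.9%, and Gm8909 at 0.90, 0 and 0 in wt and 115, 112 and 111 in control, with 12.4% shared and 24.9% of its exon length overlapped by another gene. The 12 largest falls were, besides those already given, Gm8113 at 187, 159.9 and 172 in wt and 0, 1.01 and 2.08 in control, Rpl29 at 949, 1060.3 and 910.3 in wt and 17, 15.1 and 21.9 in control and Rpl26 at 2105, 2313 and 2111 in wt and 74.3, 74.4 and 45.8 in control, all 3 of which share over 10% of their words.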

How the data were processed

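RNA was measured in 15 poly(A), strand-specific libraries, sequenced single-end. By the methods of the study, reads were aligned to mm10 with GSNAP, and the deposited values are raw read counts per Ensembl gene of uniquely aligned reads, made by the authors with featureCounts 1.4.6. Whether strand was used is not given in the sources used here, so overlapping genes can share reads. Groups came from the titles. Counts were tested with edgeR 4.0.16 in R 4.3.3 (quasi-likelihood F-test, TMM, filterByExpr, all 15 libraries in one fit, contrast control minus wt) and Benjamini-Hochberg adjustment over 16245 genes. On simulated counts, all 50 genes at each simulated fold (0.25, 0.5, 2 and 4) were called, with 10 of 15735 unchanged genes. The simulation used the wt profile for all groups, a fixed spread and few changes, balanced in direction. It therefore does not give the rate of false calls in the real contrast, where 57.8% of genes were called. Symbols and biotypes came from the GENCODE annotation of GRCm38, for 97.9% of genes, and promoters from RefSeq. Shared words are 50-base words of annotated transcripts found at another locus. Lists were described by counts and medians, with no set test, and 7 of 833 list symbols were not in the table. Replicate libraries differed beyond sampling noise (chi-square per gene 2.89 to 10.2, between replicates), and with no record of separate litters p-values measure the spread between these libraries. Intervals and floors cover counting error only, at 95%. Named genes were the 12 largest rises and falls past the thresholds without overlap, up to 4 members per list, and fixed genes, and single exceptions within a list were named after their values were seen. The members and lists were chosen with earlier results of these data known. Alternatives were other normalisations, DESeq2 1.42.0, filters, criteria, a replicate block and leaving out each library. No column was left unused. Some genes that the rule names are not reported here.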

Additional observations from a re-analysis of the deposited data

How the results depend on the processing

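The counts of genes moved by more than 1.5 times under 1 planned criterion, a fold change of at least 2 for regulated genes, which gave 768 higher and 324 lower. Across the libraries left out in turn, 4213 to 4451 genes were higher and 4264 to 4490 lower at an adjusted p below 0.05, and 1233 to 1337 were regulated higher and 647 to 714 lower. DESeq2 gave 4539 higher and 4167 lower. Scaling by total counts alone moved the share of higher genes among those called from 49.3 to 33.0%. Same-numbered wt and control libraries had correlations of -0.0255, -0.00949 and 0.00815 in their deviations from the group means. Pairs of unlike number had -0.064 to 0.0739. Such values from 3 libraries per group cannot exclude a pairing, which the labels do not give. The replicate block gave 4569 higher and 4687 lower genes. In the fits of named genes 2690 of 2715 values kept their direction and side of the threshold and none reversed, and 14 lost and 11 gained a call, among them Ptf1a, Afp, Gcg, Pecam1 and Acta2, given above. Of 624 list medians 51 moved by more than the spread and 2 were counted as reversed. Leaving out single libraries also changed the sign of some medians. They ranged from -1.01 to 0.07 for hepatocyte genes, -0.012 to 0.215 for iron handling genes and -0.004 to 0.027 for the Notch pathway. Of 18 read shares 12 moved with the effective library size as the denominator, which raised the ratio of control to wt in each. The median of stomach and intestine genes was -0.35 with no filter on low counts, in which genes with hardly any reads are counted, and that of Nrf2 targets and metallothioneins was -0.038 with total counts alone, which shifts all genes downward. Without genes that share over 10% of their words, an alternative chosen after the data were seen, the acinar median was 3.33, the interferon median 2.38 and the erythroid median -3.61. Genes with few reads, such as those of gut and platelets, are limited by depth.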

Other observations

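Some further genes were picked after their values were seen and are given as values only. Slc5a10, a sodium-coupled sugar transporter, was at 0.90, 1.92 and 0.94 in wt and 153, 260.4 and 82.3 in control, and at 0 to 2.29 in the JTE013 groups, so that, as for Wfdc18, the level was raised in the control explants and not in the other cultured groups, a difference that was not tested. Cym, the milk-clotting protease chymosin, was at 118, 152 and 98.5 in wt and 9034, 6851 and 10266 in control, and between those levels, at 1584 to 3566, with JTE013. Gpnmb, a membrane glycoprotein of macrophages and lysosomal stress, was at 25.2, 14.4 and 15.9 in wt and 1119, 1441 and 1785 in control, and at 2684 to 4355 with JTE013. F13a1, coagulation factor XIII of resident macrophages and platelets, was at 581, 582 and 576 in wt and 38.2, 34.2 and 40.6 in control and fell 15.4-fold, in the direction of Cd163 and Mrc1. Xist, the RNA of the inactive X chromosome, was at 72, 14556 and 4639 in wt and 3232, 7133 and 7363 in control, so it varied widely between the pools within each group. The sex of the embryos was not labelled, and its part in the changes above was not tested.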
